A study of Homo sapiens with 9 samples.

Results

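Transcription start sites (TSS, the points where RNA synthesis of a gene begins) with a sharp peak of nascent RNA in unirradiated cells were followed after ultraviolet (UV-C) irradiation. They were chosen by their mock signal: of 7936 start identifiers present in all 9 libraries, 3436 had a mean mock signal of at least 1 per 200-bp bin from 1 to 5 kb downstream, and 658 of these had at least 2 times that signal in the first 1 kb. A further 1012 identifiers, whose first 1 kb stood at 0.5 to 1 times the next 4 kb, served as the contrast set. Since the choice used the mean of the 3 mock libraries, a start whose mock peak was high by chance enters the set, and later decline is favoured. Values in mock and changes from mock are therefore descriptions without a test, and the main tests were run on the 6 UV libraries alone.

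The libraries came from BrU-seq, which labels new RNA with bromouridine in living cells, recovers it with an antibody and sequences it. All 3 lines were RPE1 cells, an established human retinal pigment epithelium line, and the labels give iCas9 and p53/puro-dKO for all of them, so p53 was knocked out in the controls too. They were a line with STK19 intact (WT), one with STK19 knocked out (KO), and a knockout line given STK19-TY (rescue). Each was mock-treated or sampled 3 h or 16 h after 12 J/m2 of UV-C, with a 30 min pulse of 2 mM bromouridine, to learn how STK19 bears on the recovery of transcription. The sources used here do not give the number of clones behind each line or the promoter of the transgene. There was 1 library per line and condition, so no difference between single libraries had a replicate check.

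RNA polymerase II commonly slows or pauses shortly after it starts, and regulated release from this pause sends it into the gene body. Many start regions also fire a second polymerase in the opposite direction, which leaves short unstable RNA upstream. UV-C lesions halt polymerases on the transcribed strand, and STK19 takes part in transcription-coupled repair, in which the halted polymerase recruits the repair machinery. A raised ratio, first 1 kb over next 4 kb, describes nascent RNA crowded at the start, and a lowered one describes RNA spread further into the gene. Apart from the pseudocount, the ratio does not depend on how a library was scaled.

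The signal was in units set by the authors' scaling, and its sums over a library were alike, so a fall of total RNA synthesis after UV would not be visible in it. Depth differed: values were whole multiples of a smallest step, finest in WT at 16 h (0.373) and coarsest in the KO 3 h library (4.88). There the median member held only 13.5 steps in the first 1 kb and 20 in the next 4 kb, so this library gives single starts the poorest precision. Neighbouring bins share reads, which blurs the 200-bp resolution. None of the identifiers matched the gene table used here, so neither gene names nor sequences are given, and what lies upstream of a start is not known.

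In the mean of the 3 mock libraries the members' signal per bin ran from 2.15 to 200.5 in the first 1 kb (median 12.7) and from 1.005 to 99.0 in the next 4 kb (median 3.88). Their ratio had a median of 2.77, with quartiles of 2.30 and 3.66 and a highest value of 70.4. The threshold cut a continuous range: the 3 members just inside had ratios of 2.001, 2.001 and 2.01, and the 3 identifiers just outside 1.999, 1.999 and 1.99. A ratio of at least 2 was met in each of the 3 mock libraries by 317 members (48.2%), in 2 of them by 268 and in only 1 by 73. The members are not fully separate places. Among 216153 pairs of members, 19 pairs, with 31 members in all, had profiles that matched at a shift of 20.8 kb or more (correlation of bin-to-bin changes over 0.6, a measure chosen after seeing the data).

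Averaged over members, the peak lay in the bin labelled 0.4 kb in all 9 libraries, and the conditions differed in its height. With each start scaled to its own 0 to 5 kb mean, the peak of WT stood at 2.93, 2.05 and 2.27 in mock, at 3 h and at 16 h. The KO peak stood at 2.50, 2.69 and 3.13, and the rescue peak at 2.78, 2.26 and 2.25. The profile fell below the 0 to 5 kb mean from 1.6 kb in WT mock and from 2 kb in WT at 3 h, so the WT signal reached further from the start at 3 h. In KO that crossing came at 1.8 kb in mock and at 1.6 kb at both UV times. At 4.8 kb the WT profile held 0.370 in mock, 0.499 at 3 h and 0.594 at 16 h, while KO held 0.507, 0.524 and 0.416.

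**Figure D1:**
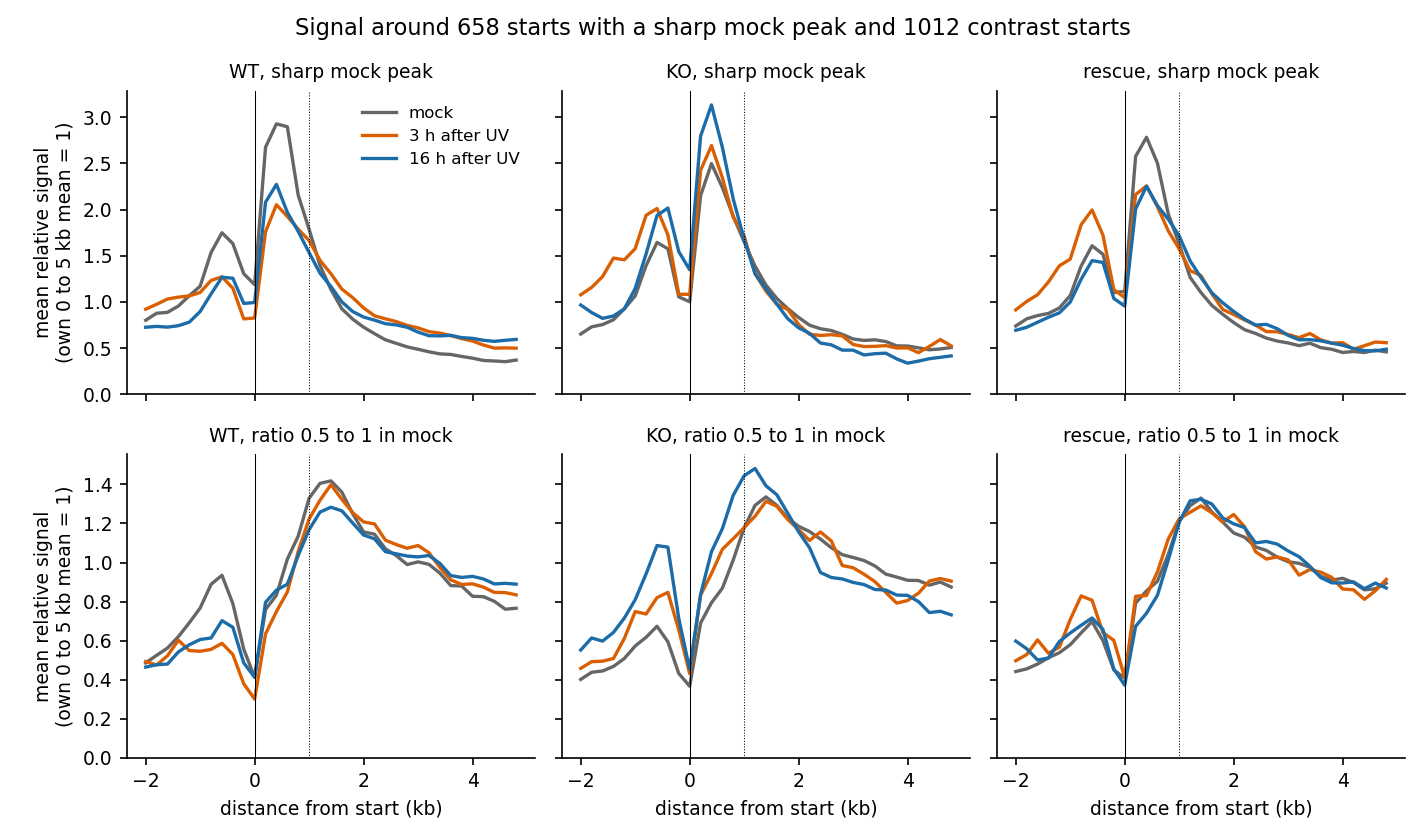
Mean signal from 2 kb upstream to 5 kb downstream of the start in 200-bp bins, each start scaled to its own 0 to 5 kb mean, for 658 members (upper row) and 1012 contrast starts (lower row, its own vertical scale); colours mark the conditions and the dotted line marks 1 kb. In the upper row the WT peak is 2.93 in mock and 2.05 at 3 h, and the KO peak is tallest at 16 h, at 3.13.

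Per start, the bin of highest signal within the first 5 kb lay in the first 1 kb for 91.2% of members in the WT mock library, 85.0% for KO and 84.6% for rescue. At 3 h the 3 lines were alike in this measure, at 71.1%, 71.2% and 70.1%. A single highest bin is poorly set in the shallow KO 3 h library, whose mean peak stood at 2.69 against 2.05 in WT. At 16 h KO stood above the others, at 87.2% against 77.1% in WT and 74.3% in rescue. In the contrast set it lay between 8.51% and 24.0% in the 9 libraries, with the highest value in KO at 16 h.

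The ratio of WT was lower after UV than in mock, and that of KO was higher. The log2 ratio, log2((first 1 kb + 1)/(next 4 kb + 1)), had a median over members of 1.54 in mock for WT (quartiles 1.21 and 1.89), with 0.79 at 3 h (0.42 and 1.20) and then 0.89 at 16 h (0.51 and 1.35). KO went from 1.06 in mock (0.75 and 1.46) to 1.28 at 3 h (0.54 and 1.87) and 1.57 at 16 h (1.10 and 2.16). Rescue stood at 1.29 in mock (0.91 and 1.66), 0.99 at 3 h (0.46 and 1.46) and 0.92 at 16 h (0.57 and 1.41). The WT quartile ranges of mock and 3 h just do not overlap, whereas those of KO overlap between all conditions. KO thus had the least sharp peak of the 3 lines in mock and the sharpest at both UV times, and its 16 h median was close to that of WT mock.

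Start by start, the median change from mock in WT was -0.74 at 3 h, with a higher ratio in only 60 of 658 members, and -0.64 at 16 h, with a higher ratio in 79. The KO changes were 0.14 at 3 h, with 370 members higher, and 0.51 at 16 h, with 78.1% higher. In rescue it was -0.30 at 3 h (213 higher) and -0.31 at 16 h (198 higher). The shares of members higher at 3 h and 16 h were 9.12% and 12.0% (WT), 56.2% and 78.1% (KO), and 32.4% and 30.1% (rescue). Over all 3436 identifiers with a mock next 4 kb of at least 1 they were 26.0% and 33.5%, 54.7% and 71.7%, and 44.1% and 37.7%. At 3 h the KO share was thus near that of all these identifiers. As ratios of the members' summed signal, in which strong starts count most, the values for mock, 3 h and 16 h were 3.58, 2.04 and 2.16 (WT), 2.59, 2.98 and 3.64 (KO), and 2.98, 2.39 and 2.26 (rescue). A ratio of 2 or more was met by 92.4% of members in WT mock, then by 40.7% and 50.9%. For KO these shares were 65.3%, 66.1% and 84.7%, and for rescue 79.2%, 57.6% and 52.6%.

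**Figure D2:**
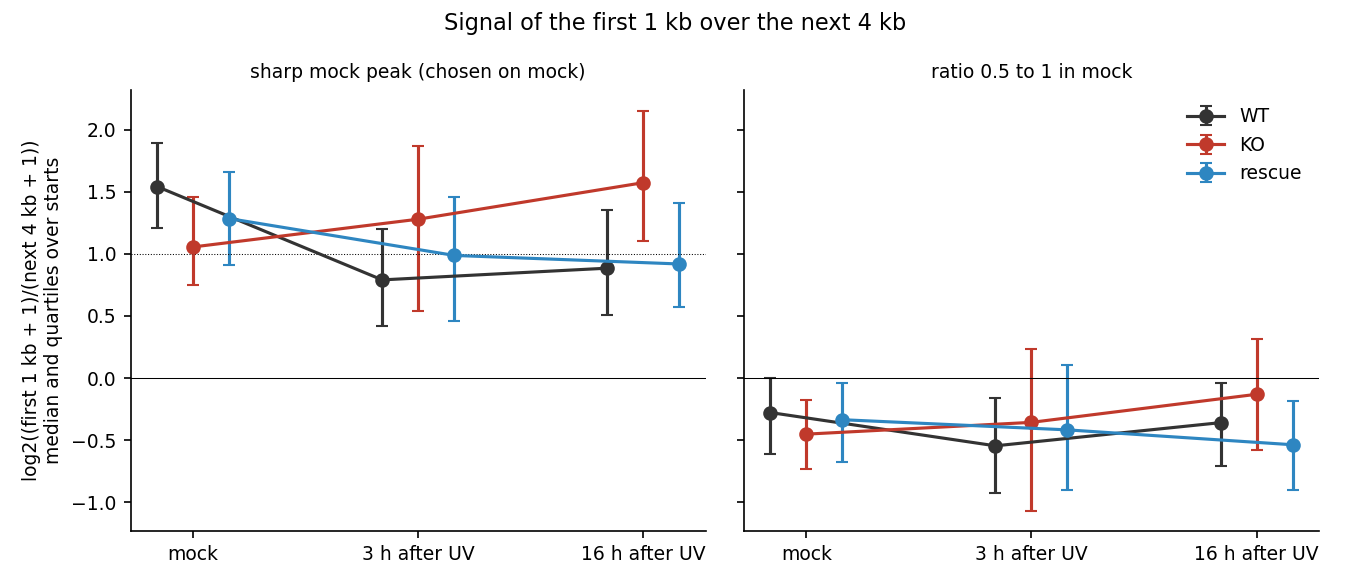
Median log2 ratio of the first 1 kb over the next 4 kb, with quartiles over starts as bars, by line and condition for members (left, chosen on mock) and the contrast set (right); the dotted line marks a 2-fold ratio. WT has 1.54 in mock and 0.79 at 3 h, KO has 1.06 in mock and 1.57 at 16 h, and the contrast medians stay below 0 in all 9 libraries.

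In the contrast set the changes had the same signs and were smaller, except that the KO change at 3 h was alike. The WT medians were -0.28 at 3 h and -0.12 at 16 h, against -0.74 and -0.64 in members. Those of KO were 0.13 and 0.33, and those of rescue -0.059 and -0.18. To take the choice on a line's own mock out of its change, starts were chosen again on the mock of the other 2 lines. The 541 starts so chosen for WT had medians of 1.54, 0.84 and 0.92 in mock, at 3 h and at 16 h, with a lower ratio than mock in 463 at 3 h and 449 at 16 h. The 761 chosen for KO had 0.91, 1.17 and 1.47, and 156 of them were below mock at 16 h. The 678 chosen for rescue had 1.13, 0.97 and 0.93, so the rescue changes were smaller, at -0.18 and -0.19. Contrast starts chosen again in this way had changes at 3 h and 16 h of -0.34 and -0.21 for WT, against -0.65 and -0.57 in members. Their WT ratio was below mock in 70.9% and 61.6%, against 85.6% and 83.0% of members. For KO the changes were 0.095 and 0.30, against 0.16 and 0.54, and at 16 h 31.7% were below mock, against 20.5%. For rescue the changes were -0.065 and -0.24, so at 16 h the rescue change was not smaller in the contrast starts.

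The 2 regions behind the ratio differed between the lines. In WT the median signal of the first 1 kb was 17.1, 16.4 and 11.8 in mock, at 3 h and at 16 h, while that of the next 4 kb was 4.47, 8.89 and 5.37. At 3 h the WT ratio was thus low beside a raised next 4 kb (median log2 change 0.70, higher in 84.2% of members) and a first 1 kb close to mock (-0.059). At 16 h the first 1 kb was the region that was low (-0.53), with the next 4 kb near mock (0.11). In KO the first 1 kb stood at 10.3, 13.2 and 20.8 and the next 4 kb at 4.09, 4.88 and 5.75, so at 16 h the median log2 change was larger at the start (0.92 against 0.34). In rescue the first 1 kb stood at 10.1, 9.76 and 15.2 and the next 4 kb at 3.06, 4.15 and 6.64, and at 16 h both were above mock (0.51 and 0.80). Much of this also held over all 3436 identifiers with a mock next 4 kb of at least 1. Their WT next 4 kb changed by 0.50 at 3 h (higher in 74.2%), and their WT first 1 kb by -0.35 at 16 h. Their WT first 1 kb at 3 h (0.061) and next 4 kb at 16 h (-0.026) were near mock. At 16 h their first 1 kb and next 4 kb changed by 0.74 and 0.35 in KO and by 0.33 and 0.55 in rescue. Such levels, unlike the ratio, rest on the authors' scaling.

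**Figure D3:**
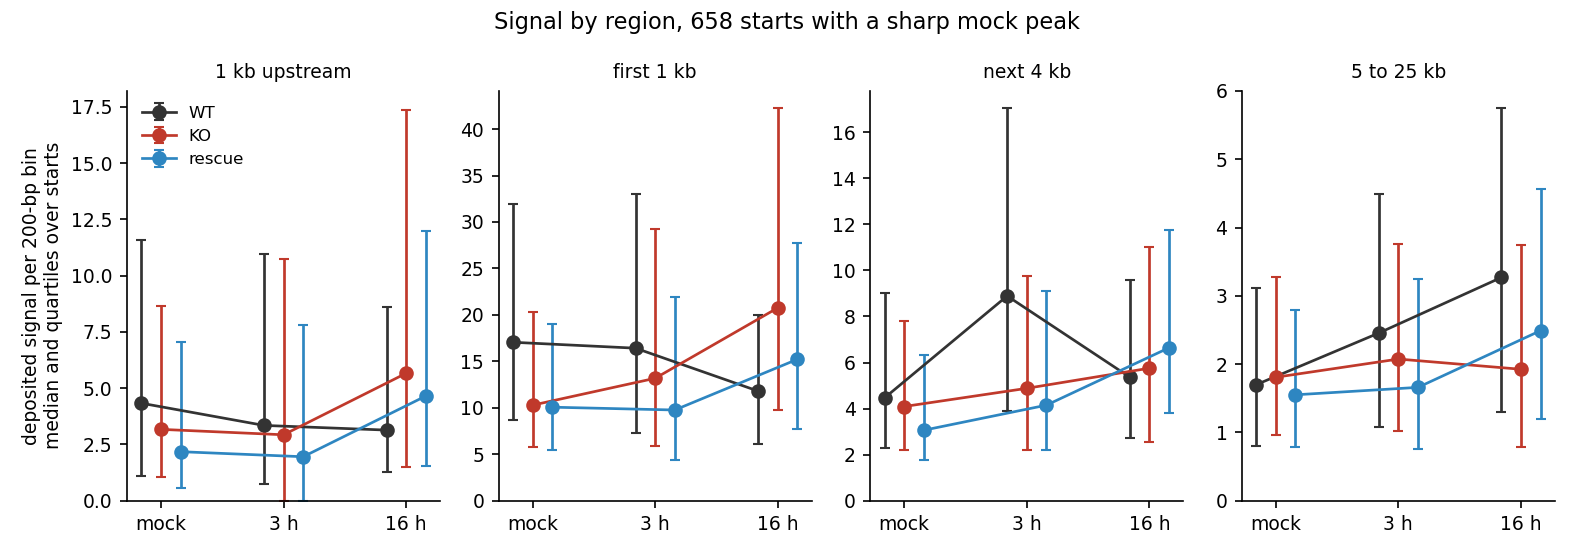
Deposited signal per 200-bp bin in the 1 kb upstream, the first 1 kb, the next 4 kb and 5 to 25 kb of the 658 members by line and condition; points are medians and bars quartiles over starts, and each panel has its own scale from 0. The next 4 kb of WT is at 8.89 at 3 h against 4.47 in mock, and the first 1 kb of KO is at 20.8 at 16 h against 10.3.

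Regions that the choice did not use showed a second peak upstream. In the mean profile it lay 0.6 kb before the start in 8 of the libraries and 0.4 kb before it in KO at 16 h, with a trough between it and the main peak. The median signal of the 1 kb upstream was 4.33, 3.34 and 3.14 for WT in mock, at 3 h and at 16 h. For KO it was 3.17, 2.93 and 5.66, and for rescue 2.18, 1.95 and 4.65. At 16 h the upstream side was therefore above mock, as was the first 1 kb, in both lines that lack the endogenous gene (median log2 change 0.62 for KO, 0.67 for rescue) and below it for WT (-0.24). The upstream changes had the same signs in all 3436 identifiers with a mock next 4 kb of at least 1 (0.48, 0.53 and -0.12). They did so in the contrast set too (0.42, 0.41 and -0.10), so they were not particular to members. These differences from mock were not tested. The contrast set had less upstream signal, with medians of 2.17, 1.81 and 1.36 in the mock libraries. Quiet surroundings further upstream (mock signal 5 to 1 kb upstream under 0.5 times the next 4 kb) were found at 77.7% of its starts and 72.8% of members. Its mean profile also had an upstream peak 0.6 kb before the start in the 3 mock libraries, so this peak was not particular to members. Relative to the main peak it stood at 0.66, 0.50 and 0.52 in WT, KO and rescue mock, against 0.60, 0.66 and 0.58 in members. Strand was not known, so these reads may stem from transcription in either direction.

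Further downstream WT had the highest signal at 16 h. From 5 to 25 kb its median member signal was 1.70, 2.45 and 3.27 over the 3 conditions, that of KO 1.81, 2.07 and 1.92, and that of rescue 1.55, 1.66 and 2.49. As a share of each start's own 0 to 25 kb signal, which no scaling affects, the first 1 kb of WT held a median of 23.0% in mock, 16.5% at 3 h and 11.2% at 16 h. For KO the share was 15.8%, 17.8% and 24.2%, and for rescue 17.6%, 16.2% and 15.4%. The 5 to 25 kb share at 16 h was 65.8% for WT, 45.6% for KO and 52.9% for rescue. From 25 to 100 kb the median signal was lowest in WT at 3 h, at 0.594, and highest in WT at 16 h, at 1.58. This window runs past the ends of many genes and may include neighbours.

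Lines were then compared within the UV libraries, which the choice did not use, over the 638 members whose UV mean reached 1 in each region (20 did not pass). At 16 h the log2 ratio was higher in KO than in WT in 534 of them (83.7%, against 72.5% of all 3239 identifiers tested). The median difference was 0.72 (quartiles 0.24 and 1.13), against 0.43 in all tested. A 2-fold or greater excess in KO was met by 203 members (31.8%), against 22.0% of all 3239 identifiers tested, and the reverse by 8 (1.25%, against 3.21%). At 3 h KO was higher in 443 members (69.4%, against 62.7%), with a median difference of 0.42, against 0.27 in all tested. The 2-fold excess was met by 142 (22.3%, against 19.0%) and the reverse by 45 (7.05%, against 12.3%). The median difference of rescue from KO was -0.68 at 16 h, with rescue lower 2-fold or more in 193 members (30.3%, against 23.7%) and higher by as much in 13 (2.04%, against 2.47%). At 3 h the median was -0.25, with a 2-fold deficit in 130 members (20.4%, against 17.2%) and a 2-fold excess in 72 (11.3%, against 15.6%). Rescue and WT were close at 16 h, with a median difference of 0.019. Rescue had the higher value in 331 of 638 (51.9%, against 42.0% of all tested). KO had the highest ratio of the 3 lines in 78.8% of members at 16 h, against 67.9% of all tested, and in 54.9% at 3 h, against 47.2%.

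At 16 h the excess of KO over WT lay on both sides of the start, at a median log2 difference of 0.87 in the first 1 kb and 0.67 in the 1 kb upstream. It was 0.081 in the next 4 kb, and from 5 to 25 kb KO was lower, at -0.45. In the contrast set the same differences were 0.80, 0.45, 0.41 and -0.12.

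**Figure D4:**
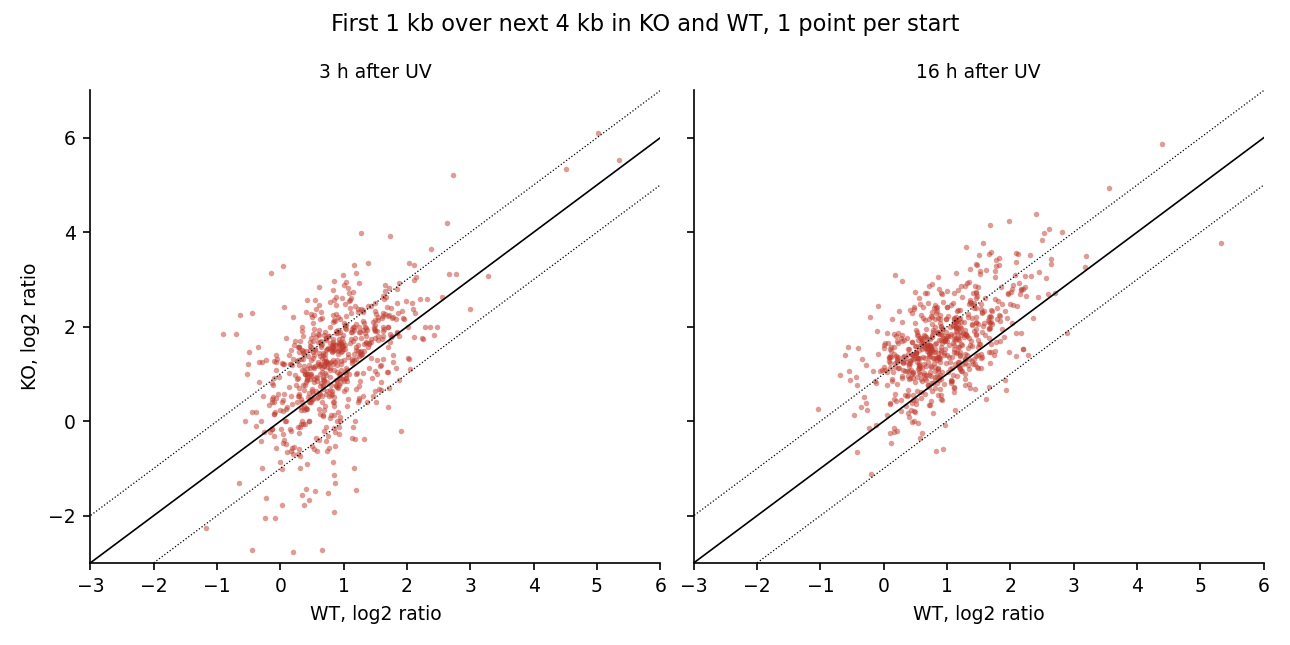
Log2 ratio of the first 1 kb over the next 4 kb in KO against WT at 3 h (left) and 16 h (right), with 1 point for each of 638 members; the solid line marks equal values and the dotted lines a 2-fold difference. At 16 h 534 points (83.7%, against 72.5% of all tested) lie above the line of equality, and the wider scatter at 3 h goes with the shallow KO library.

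limma, with 3 h and 16 h as blocks, tested whether the difference averaged over the UV times departed from 0. For KO against WT it called 0 of 638 members and 0% of 3239 identifiers (adjusted p under 0.05). At an unadjusted p under 0.05 were 118 of the 638 members and 372 of the 3239 identifiers. The median log2 difference was 0.55 in members, 0.33 in all tested and 0.23 in the contrast set, positive in 537, 2273 and 583 of them. For rescue against KO it called 0 members and 0% of all tested, with medians of -0.46, -0.32 and -0.30. Here 96 members and 338 of the 3239 identifiers were at an unadjusted p under 0.05. Without the KO 3 h library, which leaves KO with its 16 h library alone and assumes that it varies like the others, 62 members were called higher in KO than in WT (9.72%, against 4.85% of all tested) and 0 lower. On the same libraries 35 members were called lower in rescue than in KO (5.49%, against 2.85%) and 2 higher. With 1 library per line and time, a constant difference between clones and an effect of STK19 cannot be told apart.

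Between 3 h and 16 h, with the 3 lines as blocks, the ratio of the 638 members had a median log2 change of 0.20, against 0.13 in all tested and 0.089 in the contrast set. limma called 0 members and 0% of all tested, with 68 members and 258 of the 3239 identifiers at an unadjusted p under 0.05. Without the KO 3 h library the member median was 0.067, against 0.024 in all tested and -0.014 in the contrast set. On those libraries 10 members were called (8 higher and 2 lower, 1.57%, against 1.01% of all tested), and without the whole KO line 12 (9 higher and 3 lower, 1.88%, against 1.20%). In simulated data, 85 of 100 identifiers with a 4-fold change and 11 of 100 with a 2-fold change were recovered by this fit, so most changes under 2-fold were not detectable. The fit of KO against WT recovered 66 and 5, and that of rescue against KO 57 and 4. Those over time below recovered 52 and 5 (first 1 kb) and 81 and 11 (next 4 kb). The change in KO against that in WT and rescue had 29 and 3. The simulated scatter was the same in all libraries, although depth differed in the data.

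The first 1 kb was called higher at 16 h than at 3 h in 11 members (1.72%, against 1.76% of all tested) and lower in 18 (2.82%, against 2.99%). The next 4 kb was called higher in 3 members (0.470%, against 1.02%) and lower in 24 (3.76%, against 3.58%). In this fit the shares are near the background. The lines disagreed, with first 1 kb medians of -0.47 for WT, 0.61 for KO and 0.42 for rescue, and the counts leaned on them. For the first 1 kb the total of 29 members was 77 without WT (12.0%, against 8.09% of all tested), 19 without KO (2.98%, against 3.12%) and 0 without rescue (against 0.156%). Without WT, 58 of the 77 were higher at 16 h, 9.06% of members against 4.88% of all tested. For the next 4 kb the total of 27 was 82 without WT (12.8%, against 13.0%), 5 without KO (0.784%, against 0.556%) and 9 without rescue (1.42%, against 0.778%). It was 6 without the KO 3 h library alone (0.940%, against 0.613%). Under trimmed-mean scaling, which lowered the median change of all tested from 0.18 to 0.029 in the first 1 kb and from 0.058 to -0.095 in the next 4 kb, 49 members (7.69%, against 7.19%) and 69 members (10.8%, against 10.9%) were called.

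The change from 3 h to 16 h in KO was also set against that in WT and rescue. Its median excess was 0.38 in members, 0.30 in all tested and 0.25 in the contrast set. limma called 48 members with a more positive change in KO (7.52%, against 6.98% of all tested) and 11 with a more negative one (1.72%, against 2.16%), again near the background. The call was not stable, with 0 members under a pseudocount of 0.25 or 4, without the low-signal filter or with all 9 libraries, and it rested on 1 residual degree of freedom. The median was between 0.33 and 0.40 under every alternative run.

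Within the set, WT was below mock at 3 h and KO above WT at 16 h in each class of mock sharpness. The WT change at 3 h was -0.70 in the 377 members with a mock ratio of 2 to 3, -0.78 in the 152 with 3 to 4 and -0.90 in the 129 with 4 or more, an order that the choice on mock favours. The excess of KO over WT at 16 h, which the choice did not use, had medians of 0.66, 0.77 and 0.75 in these classes. It was 0.71 in the 334 members with a mock next 4 kb under 4 and 0.70 in the 324 others. It was 0.75 in the 479 members with quiet surroundings upstream and 0.57 in the 179 others. Of the 658 members, 134 kept a ratio of 2 or more in all 6 UV libraries and 29 in none, against 1 and 734 of the 1012 contrast starts. Of the 1214 identifiers with a mock ratio between 1 and 2, 6 did so in all and 479 in none. The choice on mock favours this order, so it is a description only.

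Among tested members, 219 of 638 (34.3%) changed their ratio in the same direction from 3 h to 16 h in all 3 lines, against 31.8% of all tested, 156 of them upwards. The 2 with the largest rise and the 2 with the largest fall, among those with an upper-half next 4 kb, are given as examples, and none passed limma's test of this change (adjusted p = 0.62 for each). For uc001ehz.4 the next 4 kb of WT stood at 10.2, 97.4 and 9.11 in mock, at 3 h and at 16 h, at 2.33, 38.3 and 14.9 in KO, and at 2.11, 26.5 and 9.24 in rescue. Its first 1 kb stood at 24.1, 99.7 and 31.4 in WT, 7.76, 18.5 and 36.2 in KO, and 7.07, 39.5 and 32.1 in rescue. At 3 h this start was thus higher in both regions in every line, most in the next 4 kb, and its ratio differed between 3 h and 16 h by 1.67 ± 0.36 (log2, SE). Its next 4 kb was called lower at 16 h than at 3 h, with a log2 change of -2.004 ± 0.54 (SE, limma, adjusted p = 0.0098).

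For uc001pkj.3 the difference was 1.44 ± 0.57 (log2, SE). Its KO 3 h library, the shallowest, had 0 in the first 1 kb and 1.95 in the next 4 kb, and without KO the difference was 0.51. This start was among those called for the excess change in KO (limma, adjusted p = 0.0042), with that library in the fit. For uc002asb.5 the log2 ratio at 3 h was 0.49 (WT), 2.27 (KO) and 2.06 (rescue), against 0.12, 0.89 and -0.16 at 16 h, a mean difference of -1.32 ± 0.42 (SE). In KO its first 1 kb was 119.1 at 3 h and 39.2 at 16 h, against 63.5 in mock. For uc001dqf.4 the difference was -1.22 ± 0.40 (SE), and the next 4 kb of WT stood at 19.8 in mock, 50.3 at 3 h and 104.0 at 16 h while the first 1 kb stood at 60.6, 98.0 and 64.3.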

How the data were processed

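The 9 libraries were grouped by their titles. The pulse began 2.5 h and 15.5 h after UV by one label and 3 h and 16 h after it by another. HOMER 4.8.2, STAR 2.7.7a, Trim Galore 0.6.5 and FastQC 0.11.9 are listed, with R 4.0.5, per the submitters' processing notes. The deposited signal is coverage around each start in 200-bp bins, in 1001 columns per the file headers, scaled by the authors. All values were whole multiples of a step within 0.02 of a step, and they are not read counts, so no count model was used. The 3 deposited averaged tables were not used. The members and all lists were chosen with earlier results of these data known.

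Region means, ratios with a pseudocount of 1 and medians were computed per library. In the main fits limma 3.58.1 (R 4.3.3) was fitted to the 6 UV libraries for 3239 identifiers whose UV mean reached 1 in each region. p-values were adjusted by Benjamini-Hochberg over all of them, and they measure the scatter between lines or times, not between cultures. In the main fits of the first 1 kb, the next 4 kb and the excess change in KO, limma's prior degrees of freedom were infinite. The same held for the ratio without KO or without the KO 3 h library. SEs and p-values of these fits thus used a scatter pooled over identifiers by a trend on their mean value, not each start's own. There were 69 fits over 6 tests, alternatives included. The fits were tested on simulated data. Examples were the largest rise and fall of the ratio from 3 h to 16 h in the same direction in all lines, with at most 2 named each way because no gene names matched. Medians describe starts, which are not replicates.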

Additional observations from a re-analysis of the deposited data

Results flagged for a closer look

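The start-proximal ratio moved in opposite directions from mock in WT and KO. At 3 h the median log2 change of the 658 members was -0.74 in WT and 0.14 in KO, against -0.64 and 0.51 at 16 h. Over all 3436 identifiers with a mock next 4 kb of at least 1 the medians were -0.42 and 0.10 at 3 h, against -0.28 and 0.39 at 16 h. Each line had 1 library per condition, and the difference between the lines in the change from mock was not tested, since the members were chosen on mock. In the UV libraries alone, limma set the change from 3 h to 16 h in KO against that in the other 2 lines. It called 48 members towards a higher ratio (7.52%, against 6.98% of all tested) and 11 towards a lower one (1.72%, against 2.16%). These shares are near the background, and 4 of the alternatives brought the calls to 0.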

How the results depend on the processing

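The 6 median changes of the members' ratio from mock kept their direction under every alternative run: members chosen on the other 2 lines, at a ratio of 3 or a next 4 kb of 4, pseudocounts of 0.25 and 4, ratios of sums, regions 1 bin upstream, and 2 choices made after seeing the data (quiet upstream, tested after UV). Identical profiles could not matter, since 0 were found. Counts of members called moved most. For the ratio at 16 h against 3 h, 0 became 12 without KO (1.88%, against 1.20% of all tested) and 10 without the KO 3 h library (1.57%, against 1.01%). For the first 1 kb, 29 became 0 without the filter and 59 with all 9 libraries (9.25%, against 8.92% of all tested). It became 49 under trimmed-mean scaling (7.69%, against 7.19%) and 0 to 77 with a line left out (0% to 12.0%, against 0.156% to 8.09%). For the next 4 kb, 27 became 0 without the filter and 80 with all 9 libraries (12.5%, against 13.6%). It became 69 under trimmed-mean scaling (10.8%, against 10.9%) and 5 to 82 with a line left out (0.784% to 12.8%, against 0.556% to 13.0%). The next 4 kb had 47 calls without the block (7.37%, against 7.81%) and 6 without the KO 3 h library (0.940%, against 0.613%). Its median change of 0.056 reversed to -8.49e-05 with a mean of 4 or more, -0.082 with trimmed-mean scaling and -0.051 without the KO 3 h library, and ran from -0.18 to 0.30 with a line left out. For KO against WT, 0 became 62 without the KO 3 h library (9.72%, against 5.18% of all tested). The median of KO against WT, 0.55, was 0.22 with all 9 libraries. For rescue against KO, 0 became 37 without the KO 3 h library (5.80%, against 3.07% of all tested). These fits without the KO 3 h library leave KO with 1 library. For the excess change in KO, 59 (9.25%, against 9.14%) became 0 with either pseudocount, without the filter or with all 9 libraries. It became 18 with regions 1 bin upstream (4.05%, against 4.50%). The cause was not tested. Lines or times were the blocks, and with 1 library per group there were no replicate numbers to pair. Depth limits single starts most in KO at 3 h.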
